A study of Rattus norvegicus with 4 samples.

Results

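The genes described here encode the machinery that copies DNA and then divides the cell. They were 38 gene names chosen by function, 20 of S phase and 18 of mitosis and cytokinesis, and were matched by name in the authors' deposited table. Earlier results of these data were known when they were chosen, so their shares beside those of all genes are descriptions. Of the 38 names, 37 were found among 32883 genes, 19 of S phase and 18 of mitosis and cytokinesis, and each had a single identifier. E2f1 had no row under that name and was not analysed here. All 37 passed the expression filter, so none was left out of the test.

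Transcripts were measured by strand-specific RNA-seq after removal of ribosomal RNA in cultured ventricular cardiomyocytes of Sprague-Dawley rats at postnatal day 2, a standard model of cardiac hypertrophy. One group of 2 libraries came from cells given phenylephrine (PE), an agonist of alpha-1 adrenergic receptors, at 20 µM for 24 h, and the other group of 2 libraries came from cells labelled untreated. The titles and the treatment label of each sample give these groups, while the treatment protocol text names PE for all 4 samples. Both groups were grown in medium with fetal bovine serum after a preplating step to remove other cells, so the controls were also exposed to serum. The labels do not say whether the replicates are separate cultures, and p-values therefore measure only the spread between these libraries, which may be technical.

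Rat cardiomyocytes leave the cell cycle during the first days after birth, and a late round of DNA synthesis and nuclear division without cell division leaves many of them with more than a single nucleus. DNA replication begins when the MCM helicase is loaded at origins and then activated, after which polymerases, a sliding clamp and a supply of deoxynucleotides carry it through. Mitotic kinases, spindle motors and a contractile ring of actin and myosin then separate the chromosomes and the daughter cells. Transcription of S-phase genes is known to depend largely on E2F factors, and that of mitotic genes on the B-Myb and FoxM1 factors acting through a promoter element called the cell cycle homology region (CHR).

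Total counts were 45637881 to 56948370 per library. The share of counts from the mitochondrial genome was 6.19% in the first control and 11.7% in the second, against 4.61% and 4.76% with PE, and the replicates of a group differed more in the controls than with PE. Cardiomyocyte markers summed to 32135 and 33041 CPM (counts scaled to a common library size) in the controls and to 43039 and 46228 CPM with PE, with 3 of 10 higher, none lower and 4 of the 10 at a negative fold change. Over all genes tested, 7.39% were higher and 8.3% lower at an adjusted p under 0.05 in edgeR, the threshold used for every marker count here. Markers of other cells were present too. Fibroblast markers summed to 16455 and 18343 CPM in the controls and 10195 and 10295 CPM with PE, with 2 of 9 tested lower and none higher and a median log2 fold change of 0.04. Endothelial markers summed to 238 and 241 CPM in the controls and 168 and 176 CPM with PE, with 5 of 9 lower and 1 higher. Macrophage markers went from 308 and 351 CPM to 204 and 228 CPM, with 3 of 10 lower, and mesothelial markers from 172 and 210 CPM to 92.4 and 107 CPM, with 3 of 6 lower. The summed markers of smooth muscle and pericytes overlapped, at 802 and 962 CPM in the controls and 843 and 996 CPM with PE. Of these 7, 1 was higher and 1 lower, yet 6 had a negative fold change, with a median log2 fold change of -0.35. Erythroid markers stood near 0, at under 0.1 CPM summed in every library. Which of these cells held the replication and mitosis transcripts cannot be read from bulk RNA, and more cycling cells cannot be told apart from more of these transcripts per cell.

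The 2 sets of genes differed in promoter letters, which the choice of members did not use. Promoter sequences came from RefSeq on build GRCr8, which is not the build of the counts, Rnor_6.0, and 31 of the 37 genes had an entry. In the 250 bases before the start, on either strand, the E2F letters TTCCCGC or TTGGCGC occurred in 7 of 15 S-phase promoters and in 2 of 16 mitotic promoters, against 1673 of all 33469 promoters in the table (5.0%). The CHR letters TTTGAA showed the opposite split, with 1 of 15 S-phase and 8 of 16 mitotic promoters, against 16.2% of all. CCAAT, the box bound by NF-Y, was present in 11 of 15 and 12 of 16, against 34.0% of all. A match is a description of letters and not evidence that a factor binds.

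The promoters below are those of the 3 genes of each set with the smallest adjusted p for PE against control among genes holding an E2F or CHR match, shown so that both patterns can be seen beside the values that follow. Each runs 5′ to 3′ on the gene's strand and ends at the base before the start. Capitals mark matches to the E2F, CHR or CCAAT letters on either strand. The windows are Rrm1 at chr1:166235654-166235903 (plus strand), Rfc4 at chr11:91254023-91254272 (plus strand), Mcm2 at chr4:122918095-122918344 (minus strand), Anln at chr8:29197514-29197763 (minus strand), Prc1 at chr1:143659231-143659480 (plus strand) and Ect2 at chr2:111966627-111966876 (minus strand), all on GRCr8.
Rrm1: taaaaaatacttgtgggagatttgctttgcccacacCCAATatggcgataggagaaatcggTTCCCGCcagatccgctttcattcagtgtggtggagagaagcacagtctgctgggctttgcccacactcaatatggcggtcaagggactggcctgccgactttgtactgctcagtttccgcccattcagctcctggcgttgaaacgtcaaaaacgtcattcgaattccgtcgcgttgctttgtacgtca
Rfc4: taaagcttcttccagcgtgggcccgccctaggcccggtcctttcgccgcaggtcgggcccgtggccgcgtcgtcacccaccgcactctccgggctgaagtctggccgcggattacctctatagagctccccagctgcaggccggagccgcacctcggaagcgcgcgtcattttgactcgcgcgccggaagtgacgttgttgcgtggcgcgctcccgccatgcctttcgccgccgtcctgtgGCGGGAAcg
Mcm2: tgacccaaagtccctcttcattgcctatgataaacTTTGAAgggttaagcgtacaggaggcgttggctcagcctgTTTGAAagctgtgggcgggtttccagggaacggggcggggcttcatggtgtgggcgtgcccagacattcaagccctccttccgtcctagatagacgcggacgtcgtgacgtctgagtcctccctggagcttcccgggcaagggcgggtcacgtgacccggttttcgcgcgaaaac
Anln: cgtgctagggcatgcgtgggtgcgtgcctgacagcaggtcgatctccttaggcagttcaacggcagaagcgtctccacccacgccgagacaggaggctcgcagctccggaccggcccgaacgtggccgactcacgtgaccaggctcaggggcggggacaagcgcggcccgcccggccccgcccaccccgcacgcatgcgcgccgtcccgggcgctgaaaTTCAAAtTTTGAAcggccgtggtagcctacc
Prc1: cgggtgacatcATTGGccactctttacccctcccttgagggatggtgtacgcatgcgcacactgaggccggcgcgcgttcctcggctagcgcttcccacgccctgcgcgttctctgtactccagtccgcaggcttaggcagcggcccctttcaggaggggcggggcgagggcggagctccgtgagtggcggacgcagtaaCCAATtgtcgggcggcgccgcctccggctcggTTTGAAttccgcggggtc
Ect2: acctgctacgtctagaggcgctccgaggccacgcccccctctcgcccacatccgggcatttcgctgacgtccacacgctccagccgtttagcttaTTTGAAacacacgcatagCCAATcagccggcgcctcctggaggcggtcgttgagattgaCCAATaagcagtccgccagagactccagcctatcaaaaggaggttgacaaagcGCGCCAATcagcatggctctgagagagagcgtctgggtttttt
In Anln, copies of the CHR letters lay on opposite strands with a single base between them, at -31 to -26 and -24 to -19 from the start. Prc1 had its CHR copy at -18 to -13, with CCAAT at -50 to -46. In Ect2 the E2F letters at -43 to -37 and CCAAT at -40 to -36 overlapped, so they are not separate matches. Mcm2 was the only S-phase promoter with CHR letters, at -215 to -210 and -175 to -170. It had neither TTCCCGC nor TTGGCGC, while 7 of 15 S-phase promoters held such letters and Rrm1 and Rfc4 each had a single match. Other spellings of an E2F site were not searched, so these letters do not show that Mcm2 lacks an E2F site.

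The comparison of PE with control asked how the adrenergic stimulus changed these transcripts. After 24 h of PE, 5 of the 37 genes were higher and none was lower at an adjusted p under 0.05 in edgeR's quasi-likelihood test. The 5 were Anln, Prc1 and Ect2, which act at the spindle midzone and the cleavage furrow, and Rrm2 and Gmnn, which act in S phase. Over all 15257 genes tested, 15.7% were called, 7.39% higher and 8.3% lower, so the members' 5 of 37, or 13.5%, stood above the share of higher calls and below the share of all calls. The fold changes of the 37 genes were small and mostly upward, with 31 positive and a median log2 fold change of 0.29, against 49.3% positive and a median of -0.01 over all genes tested. At an unadjusted p under 0.05, 11 were higher and none lower, where 13.7% and 15.1% of all genes were. In simulated counts of 15257 genes, with 50 genes changed at each size, the same fit recovered 12% of genes changed 1.5-fold and 60% of those changed 2-fold. The simulation gave 136 calls, 8 of them false, against 2393 in the data. Its adjusted threshold was thus stricter, and these shares do not carry over to the 37 genes. DESeq2 called 6 higher and none lower, against 8.13% and 8.65% of all genes, and the authors' deposited table called the same 6, the additional gene being Rrm1. The count depended on the libraries: omitting a control gave 11 (first) or 15 (second) higher and 1 lower, and omitting a PE library gave 1 (first) or 2 (second) higher and none lower. The calls over all genes moved the same way, from 2393 to 4708 or 4755 with a control omitted and to 1205 or 1267 with a PE library omitted.

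**Figure D1:**
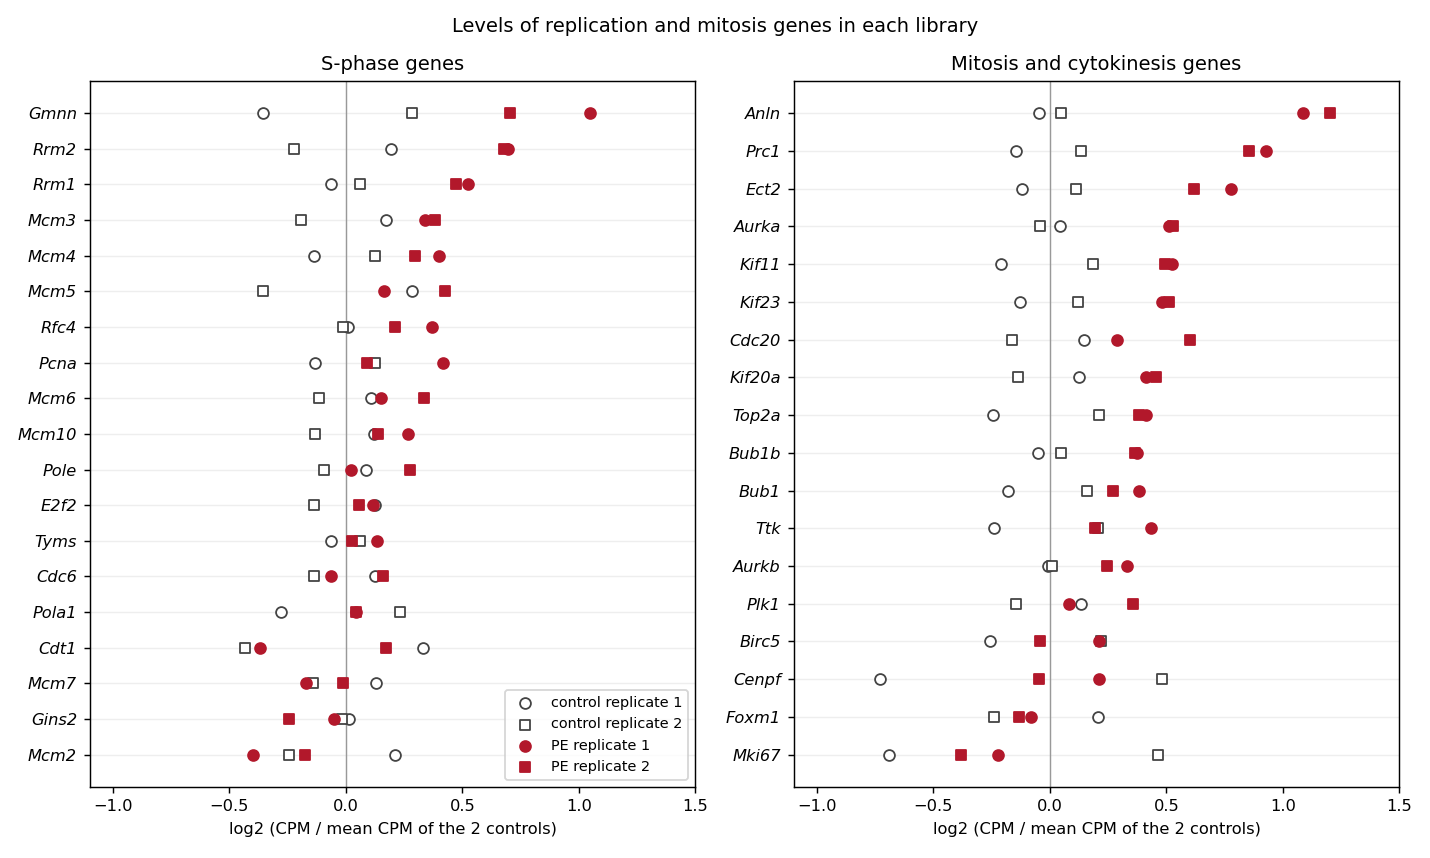
Level of each of the 37 genes in each library, as log2 of its CPM over the mean CPM of the 2 controls, for S-phase genes (left) and mitosis and cytokinesis genes (right), ordered by fold change. Open symbols are controls and filled symbols PE, circles are replicate 1 and squares replicate 2. Anln, Prc1 and Ect2 stand clear of their controls, while Mki67 and Cenpf have controls farther apart than any pair of PE libraries.

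Among the genes of the spindle midzone and cleavage furrow, Anln (ENSRNOG00000014343) changed most. It encodes anillin, a scaffold that ties actin, myosin and septins into the contractile ring. Anln stood at 23.5 and 25.1 CPM in control replicates 1 and 2 and at 51.5 and 55.9 CPM in PE replicates 1 and 2. Both PE libraries were far above both controls, and the log2 fold change was 1.14 ± 0.16 (SE; n = 2 each; adjusted p = 0.00107 in edgeR), a 2.21-fold rise. Anln was the only gene of the 37 called in each fit that left out 1 library, with log2 fold changes of 1.09 to 1.21.

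Prc1 (ENSRNOG00000013057) encodes the protein that bundles antiparallel microtubules at the midzone. It stood at 21.7 and 26.4 CPM in the controls and 45.7 and 43.4 CPM with PE. Its groups did not overlap, and it rose by 0.89 ± 0.17 on the log2 scale (adjusted p = 0.00621 in edgeR). Ect2 (ENSRNOG00000024365), an exchange factor that acts at the cleavage furrow, stood at 14.7 and 17.3 CPM in the controls and 27.4 and 24.5 CPM with PE. Ect2 rose by 0.70 ± 0.18 (adjusted p = 0.0261 in edgeR). When the first PE library was omitted, Prc1 was at 0.86 and Ect2 at 0.62 (edgeR adjusted p = 0.103 and 0.362). When the second was omitted they were at 0.93 and 0.78 (edgeR adjusted p = 0.0582 and 0.158), so neither was called in these fits. Ect2 also missed the threshold in the fit with a replicate block (0.70, edgeR adjusted p = 0.0860).

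None of the 3 motor protein genes of this role passed. Kif23, a kinesin of the centralspindlin complex that recruits Ect2, stood at 11.6 and 13.8 CPM in the controls and 17.7 and 18.1 CPM with PE. Kif20a, a midzone kinesin, stood at 24.7 and 20.6 CPM against 30.2 and 31.1 CPM, and Kif11, the bipolar motor that pushes spindle poles apart, at 15.9 and 21.0 CPM against 26.5 and 26.0 CPM. In all 3 both PE libraries were above both controls, but the log2 fold changes of 0.50 ± 0.18, 0.43 ± 0.17 and 0.51 ± 0.19 did not pass (adjusted p = 0.102, 0.130 and 0.102 in edgeR). All 6 genes of this role thus had PE libraries above both controls, where 28.5% of all genes tested did. The roles were set with earlier results of these data known, so this is a description and not an independent contrast. The summed level of the 6 was 112 and 124 CPM in the controls and 199 CPM in each PE library.

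**Figure D2:**
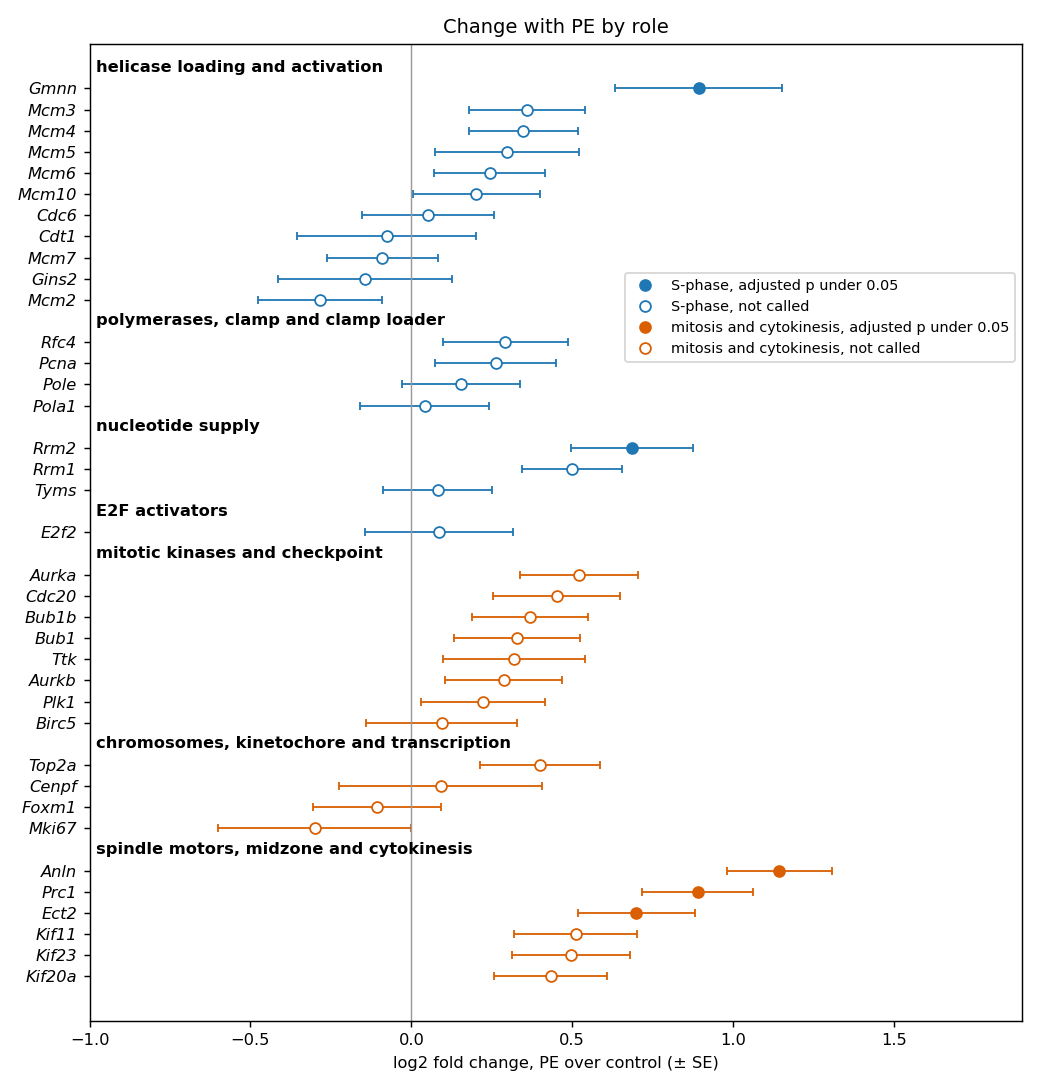
Log2 fold change of PE over control with its standard error for each of the 37 genes, grouped by role. Blue marks S-phase and orange mitosis and cytokinesis genes, and filled points are those with an adjusted p under 0.05. Filled points are Gmnn, Rrm2, Anln, Prc1 and Ect2, and all 6 genes of spindle motors, midzone and cytokinesis lie between 0.43 and 1.14.

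None of the 8 genes of mitotic kinases and the spindle checkpoint passed, at log2 fold changes of 0.09 to 0.52 with a median of 0.32. At an unadjusted p under 0.05, 2 of the 8 were higher, where 13.7% of all genes tested were, and DESeq2 called none. Aurka, the kinase of the spindle poles, stood at 9.73 and 9.17 CPM in the controls and 13.5 and 13.6 CPM with PE, a log2 fold change of 0.52 ± 0.18 (adjusted p = 0.0860 in edgeR). Cdc20, which activates the anaphase-promoting complex, was at 0.45 ± 0.20 (adjusted p = 0.160). The chromosomal passenger genes Aurkb and Birc5 (survivin) were at 0.29 ± 0.18 and 0.09 ± 0.23, and Plk1, a kinase used throughout mitosis, at 0.22 ± 0.19. The checkpoint genes Bub1, Bub1b and Ttk were at 0.33 ± 0.20, 0.37 ± 0.18 and 0.32 ± 0.22. In 5 of these 8 genes both PE libraries were above both controls, where 28.5% of all genes tested were. In the other 3 (Plk1, Ttk and Birc5) the groups overlapped.

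The usual marker of proliferating cells, Mki67 (Ki-67, a coat protein of mitotic chromosomes), gave no direction. It stood at 69.1 CPM in control replicate 1 and 154 CPM in control replicate 2, with both PE libraries between them at 95.6 and 85.5 CPM. Its log2 fold change was -0.30 ± 0.30 (adjusted p = 0.566 in edgeR), and dropping the first control turned it to -0.76 while dropping the second turned it to 0.39 (edgeR adjusted p = 3.07e-06 and 0.0407). Cenpf, a kinetochore protein, behaved alike, at 19.1 and 44.2 CPM in the controls and 36.6 and 30.7 CPM with PE, with values of -0.39 once the first control was dropped and 0.82 once the second was (edgeR adjusted p = 0.0503 and 2.08e-05). In these fits the spread came from the PE pair alone. Top2a, the topoisomerase that untangles sister chromatids, stood at 41.4 and 56.6 CPM in the controls and 65.2 and 64.0 CPM with PE (0.40 ± 0.19, adjusted p = 0.191 in edgeR). Foxm1, a transcription factor for mitotic genes, stood at 21.3 and 15.6 CPM against 17.5 and 16.8 CPM, and its groups overlapped.

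In S phase, the genes of deoxynucleotide supply were the highest by median. Rrm2 (ENSRNOG00000054286), the small subunit of ribonucleotide reductase, stood at 24.1 and 18.0 CPM in the controls and 34.1 and 33.6 CPM with PE. It rose by 0.69 ± 0.19 on the log2 scale (adjusted p = 0.0339 in edgeR). Rrm1 (ENSRNOG00000045752), the large subunit, stood at 102 and 111 CPM in the controls and 153 and 148 CPM with PE. Its groups did not overlap, yet its log2 fold change of 0.50 ± 0.16 did not pass in edgeR (adjusted p = 0.0569) and did in DESeq2 (adjusted p = 0.0310). Tyms, thymidylate synthase, overlapped, at 22.5 and 24.5 CPM against 25.8 and 24.0 CPM (0.08 ± 0.17). Omitting the first or the second PE library left Rrm2 at 0.68 and 0.70 and not called (edgeR adjusted p = 0.283 and 0.242), and so did a replicate block (0.70, edgeR adjusted p = 0.0807).

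Gmnn (ENSRNOG00000018782) encodes geminin, which binds Cdt1 and blocks renewed origin licensing after S phase begins. It stood at 3.09 and 4.83 CPM in the controls and 8.20 and 6.46 CPM with PE. Gmnn rose by 0.89 ± 0.26 on the log2 scale (adjusted p = 0.0428 in edgeR), but omitting the first PE library left it at 0.71 and not called (edgeR adjusted p = 0.267). Its target Cdt1, a licensing factor, spread widely within both groups, at 12.9 and 7.59 CPM in the controls and 7.93 and 11.6 CPM with PE, and was at -0.08 ± 0.28. Cdc6, which loads the helicase with Cdt1, was at 0.05 ± 0.21, with overlapping groups.

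The 6 subunits of the MCM helicase form a single ring, and none of their transcripts passed. Mcm3, Mcm4, Mcm5 and Mcm6 were at log2 fold changes of 0.36 ± 0.18, 0.35 ± 0.17, 0.30 ± 0.22 and 0.24 ± 0.17. Mcm2 and Mcm7 were at -0.28 ± 0.19 and -0.09 ± 0.17 (adjusted p = 0.207 to 0.782 over the 6 in edgeR). Mcm2 stood at 79.4 CPM in control replicate 1, above 58.0 CPM in control replicate 2 and 52.1 and 60.8 CPM with PE. Against the first control alone it was at -0.49 (edgeR adjusted p = 0.00698), and against the second alone at -0.03. Mcm5 stood at 29.7 and 19.1 CPM in the controls against 27.3 and 32.8 CPM with PE, so that it was at 0.66 against the second control alone (edgeR adjusted p = 0.00101) and at 0.02 against the first alone. Mcm10 and Gins2, which help activate the loaded helicase, were at 0.20 ± 0.20 and -0.14 ± 0.27. Gins2 was the single gene of the 37 with both PE libraries below both controls, at 2.01 and 1.76 CPM against 2.11 and 2.06 CPM, where 28.1% of all genes tested were.

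The replication fork genes did not pass either. Pcna, the sliding clamp, stood at 23.2 and 27.8 CPM in the controls and 34.0 and 27.1 CPM with PE (0.26 ± 0.19, adjusted p = 0.408 in edgeR). Rfc4, of the clamp loader, was at 0.29 ± 0.19, and the polymerase subunit genes Pole and Pola1 were at 0.15 ± 0.18 and 0.04 ± 0.20. E2f2, an activator of S-phase genes, stood at 3.82 and 3.18 CPM against 3.80 and 3.64 CPM, with overlapping groups.

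Set side by side, S-phase genes had 2 of 19 called higher and mitosis and cytokinesis genes 3 of 18, where 7.39% of all genes tested were. Their median log2 fold changes were 0.20 for S-phase genes and 0.38 for mitosis and cytokinesis genes. Both PE libraries were above both controls in 8 of 19 S-phase genes and 12 of 18 mitosis and cytokinesis genes, where 28.5% of all genes tested were. No test of the difference was made, since genes of a set are not replicates and 2 libraries against 2 cannot give an exact permutation p below 0.333. The difference between the medians, 0.18, depended on the control library. Against control replicate 1 it was 0.37 for PE replicate 1 and 0.26 for PE replicate 2, and against control replicate 2 it was 0.06 and 0.04.

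**Figure D3:**
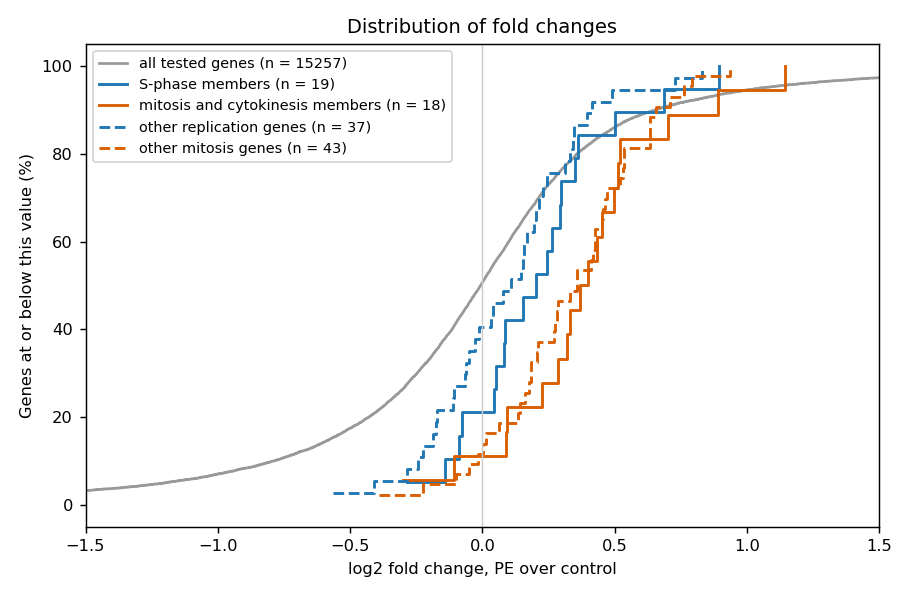
Cumulative share of genes by log2 fold change of PE over control, for all 15257 genes tested (grey), the 19 S-phase and 18 mitosis and cytokinesis genes (solid) and other genes of replication (37) and mitosis (43) (dashed). The mitosis curves lie to the right of the S-phase curves in their middle, with medians of 0.38 and 0.36 against 0.20 and 0.11.

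The controls themselves differed by set. In control replicate 2, 13 of 19 S-phase genes were lower than in control replicate 1, with a median log2 ratio of -0.22, while 13 of 18 mitosis and cytokinesis genes were higher, with a median of 0.24. Over all genes tested the median ratio was -0.02. The ratio was 1.16 for Mki67 and 1.21 for Cenpf, and -0.77 for Cdt1 and -0.64 for Mcm5. Between PE replicates the medians were -0.02 and -0.04. The summed level of the S-phase genes was 530 and 495 CPM in the controls and 598 and 608 CPM with PE, so both PE libraries were higher. That of the mitosis and cytokinesis genes was 354 and 486 CPM in the controls and 527 and 513 CPM with PE. This sum was also higher in both PE libraries, but control replicate 2 was close to PE. Mki67 alone gave 69.1 and 154 CPM of the control sums and 95.6 and 85.5 CPM of the PE sums. A large part of the gap between the control sums thus lay in this gene. The mitochondrial share of counts differed between the same 2 controls (6.19% and 11.7%), and its part in these differences was not tested. In a fit of PE against control without the mitochondrial-genome genes, the difference between the set medians was 0.18, as in the main fit.

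**Figure D4:**
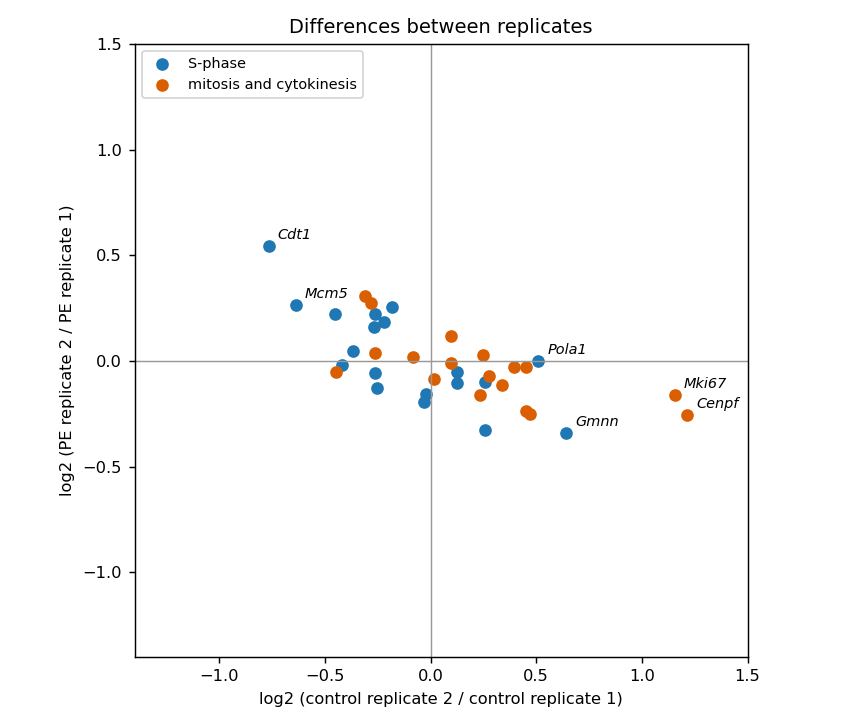
Difference between replicates for each of the 37 genes, as log2 of replicate 2 over replicate 1 in the controls (horizontal) and with PE (vertical). S-phase genes (blue) lie mostly left of zero and mitosis and cytokinesis genes (orange) mostly right of it, and 29 of the 37 genes have opposite signs in the controls and PE, against 67.4% of all genes tested.

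Other genes of these pathways, listed by function, showed the same order of medians. The lists were read from the same 4 libraries and chosen with earlier results of these data known, so this is no independent support. Without control replicate 1 the medians were 0.25 for other mitosis genes and 0.08 for other replication genes. Without control replicate 2 they were 0.48 and 0.05. Of 37 other replication genes none passed in edgeR, where 15.7% of all genes tested did, with a median log2 fold change of 0.11. At an unadjusted p under 0.05, 2 were higher and 2 lower, where 13.7% and 15.1% of all genes tested were. DESeq2 called 1, Cdc7, a kinase that fires origins, named after its values were seen. Those with the highest mean CPM, which is not per length, were Dnmt1, the maintenance DNA methyltransferase, at -0.11 ± 0.16, and Rpa1, of the single-strand binding complex, at 0.15 ± 0.18. Of 44 names of other mitosis genes 43 were found. Of these 43 genes 2 rose and none fell, or 4.65% higher against 7.39% of all genes tested, with a median of 0.36 and 38 positive. At an unadjusted p under 0.05, 14 of the 43 were higher and none lower, where 13.7% and 15.1% of all genes tested were. Cit, citron kinase of the cleavage furrow, stood at 23.7 and 21.9 CPM in the controls and 40.0 and 47.4 CPM with PE, and rose by 0.94 ± 0.17 (adjusted p = 0.00461 in edgeR). Arhgap11a stood at 13.0 and 18.3 CPM against 27.5 and 25.6 CPM and rose by 0.76 ± 0.20 (adjusted p = 0.0297). Omitting the second PE library left both at 0.82 and not called (edgeR adjusted p = 0.127 for Cit and 0.128 for Arhgap11a), and omitting the first left Arhgap11a at 0.71 and not called (edgeR adjusted p = 0.245).

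Of 11 names for cyclins, Cdk1, Cdk2, Cdc25 genes and Wee1, 10 were found. Among these 10 genes, 1 rose and none fell, where 7.39% of all genes tested rose and 8.3% fell. The median was 0.18. The gene that rose was Ccnb1, cyclin B1 of mitotic entry, at 4.57 and 5.35 CPM in the controls and 10.1 and 9.79 CPM with PE (1.00 ± 0.20, adjusted p = 0.00729 in edgeR). It was called in each fit that left out 1 library. Of 16 pocket protein, E2F and B-Myb complex genes, 1 rose and 1 fell, near those shares of all genes tested, with a median of 0.03. Rbl2, the pocket protein p130 that represses cell cycle genes in resting cells, stood at 70.6 and 82.0 CPM in the controls and 44.1 and 40.8 CPM with PE. Rbl2 fell by 0.85 ± 0.17 on the log2 scale (adjusted p = 0.00662 in edgeR). E2f5, an E2F that works with p130, stood at 8.50 and 9.11 CPM against 16.4 and 13.3 CPM and rose by 0.76 ± 0.20 (adjusted p = 0.0257). Both missed the threshold once the first PE library was omitted (-0.90 for Rbl2 and 0.60 for E2f5, edgeR adjusted p = 0.121 and 0.389) and once the second was (-0.79 and 0.91, edgeR adjusted p = 0.202 and 0.0736).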

How the data were processed

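One deposited table gives unnormalized read counts for each gene in each library. The submitters' processing notes name build Rnor_6.0, cutadapt 2.0, STAR 2.4.2a and featureCounts 1.6.4. How reads were assigned by strand is not given in those notes, so genes that overlap another gene are uncertain. The second table is the authors' own comparison: mean normalized signal, log2 fold change, test score and p-value per gene, with gene names, per the file headers.

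Counts were fitted with edgeR 4.0.16 (limma 3.58.1, R 4.3.3; quasi-likelihood F test, TMM factors, edgeR's default expression filter, set at 10 reads and a total of 15) on all 4 libraries, and p-values were adjusted by Benjamini-Hochberg over 15257 genes with a threshold of 0.05. CPM uses TMM-adjusted library sizes, and is not per length, so that it ranks genes only in the naming rule below. Each SE is the size of the log2 fold change divided by the square root of its F value. It thus rests on a spread moderated across genes and not only on the libraries of that gene. Every row of the count table had a gene identifier. DESeq2 1.42.0, other scalings, no filter, mitochondrial-genome genes left out, a replicate term and each library left out were alternatives. The fit was tested on simulated data. Replicates were not copies of a library (chi-square per degree of freedom 133 in the controls and 19.8 with PE).

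Members, lists and roles were chosen with earlier results of these data known. All members could be named; from each other list, up to 4 called genes with the largest change were named, or the 2 with the highest CPM where none was called.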

Additional observations from a re-analysis of the deposited data

How the results depend on the processing

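Leaving out libraries moved the counts most. Genes called over the whole table, 2393 in all, ranged from 1205 to 4755. S-phase genes called higher ranged from 0 to 5 and lower from 0 to 1, and mitosis and cytokinesis genes called higher from 1 to 11 and lower from 0 to 1. The called lower genes were Mcm2 without control replicate 2 and Mki67 without control replicate 1. The difference of set medians ranged from 0.076 to 0.36. Called genes ranged from 0 to 6 among other replication genes, 0 to 20 among other mitosis genes, 1 to 3 among cyclin genes and 0 to 5 among pocket protein and E2F genes. In these fits a group with a lone library borrows its spread from the other pair and is assumed to vary like it.

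With upper-quartile factors 1 S-phase gene was called higher, as Gmnn no longer passed. Without a filter on low counts, 3 other replication genes, 7 other mitosis genes and 2 cyclin genes were called. That fit called 3189 genes over the whole table, against 2393 with the filter. It tested every gene with a read, and 12217 of the 32883 genes had none. DESeq2 called 1 other replication gene. Pola1 was at -0.00054 with library sizes alone.

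Replicate numbers are shared between the groups, but same-numbered libraries did not deviate together (correlation -0.23 across genes). With the replicate number as a replicate block, 1964 genes were called over the whole table, with 1 S-phase gene, 2 mitosis and cytokinesis genes and 1 pocket protein or E2F gene among them. With the pairing crossed, a choice made after seeing the data, 4677 genes were called over the whole table, and 5 S-phase genes and 9 mitosis and cytokinesis genes were called higher.

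For 9 genes, none of them called with all 4 libraries, the fold change took the other sign when a library was left out. Their ranges were -0.22 to 0.057 for Mcm7, -0.071 to 0.19 for Cdc6, -0.41 to 0.36 for Cdt1, -0.18 to 0.32 for Pola1, -0.036 to 0.23 for E2f2, -0.12 to 0.35 for Birc5, -0.76 to 0.39 for Mki67, -0.39 to 0.82 for Cenpf and -0.31 to 0.14 for Foxm1. The cause was not tested.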
